A study of Mus musculus with 20 samples.

Results

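The genes described here are the cytosolic ribosomal proteins of the mouse and their paralogs. They were taken from the table of gene counts by symbol, as protein-coding genes named for a protein of the large or small ribosomal subunit, and 84 of 57010 genes met the rule. A further 3 genes carry such a symbol but are annotated as pseudogenes and were left out. Of the 84 members, 81 in liver and 82 in kidney reached 10 counts in 50% or more of a tissue's libraries and were tested. Rpl10l, Rpl39l and, in liver, Rpl3l did not.

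RNA-seq was performed on the livers and kidneys of male UM-HET3 mice, a genetically heterogeneous stock bred from 4 inbred strains, which were 12 months old when treatment began. The 7c group received repsox, tranylcypromine, DZNep, CHIR99021, forskolin and TTNPB at 0.1 mg/kg/day each and valproate at 1 mg/kg/day through a subcutaneous osmotic minipump for 28 days. Vehicle mice carried the same pumps filled with DMSO and PEG300. There were 6 7c and 4 vehicle libraries in each tissue, 20 in all, and each holds RNA from a piece of frozen tissue with all its cell types, so that fewer cells of a type and less RNA per cell cannot be told apart.

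Ribosomal proteins are the protein part of the machine that makes all other proteins. Their mRNAs are short and abundant, and most begin with a C followed by a run of pyrimidines, the terminal oligopyrimidine motif, through which LARP1 and mTOR signalling hold back or release their translation together. The mouse genome also carries many processed pseudogenes, copies of these mRNAs written back into the chromosomes, and a few functional paralogs that can take the place of the canonical protein in some tissues.

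Promoter sequences of the RefSeq table (GRCm38.p6) were matched to 63 members. As one spelling of a pyrimidine run, CTTTCC lay within 20 bases of the annotated start on the sense strand of 11 of these, 17.5%, against 2.30% of 27025 genes, and on the opposite strand of 0 of 63 against 2.03%. Shown are 4 members in which it lies at or just after the start, since they carry the feature by which the family is usually recognised. Each stretch is 30 bases, printed 5′ to 3′ on the gene's strand, with the match in capitals. In Rpl38 (chr11:114668568-114668597, plus strand) the match opens at base 1 of the transcript.
Rpl38: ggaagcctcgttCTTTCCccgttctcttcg
Rpl28: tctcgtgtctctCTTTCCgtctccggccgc
Rpl15: aaagccttcttcCTTTCCtctggcggcagc
Rpl35a: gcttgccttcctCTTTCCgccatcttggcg
The match opens at base 3 in Rpl28 (chr7:4792955-4792984, plus strand) and Rpl35a (chr16:33056472-33056501, plus strand) and at base 5 in Rpl15 (chr14:18270965-18270994, minus strand). The spelling was chosen after the sequences had been looked at, and a match is not evidence of regulation.

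The identity of the tissues was clear from their markers. Alb held 1591179 to 2157315 counts in each liver and at most 1684 counts in any kidney, and the kidney markers Umod, Slc34a1, Slc12a1 and Kap were at 0 in every liver. Library totals lay between 28383359 and 34153084 counts in liver and between 27855849 and 64872451 in kidney. The liver of 7c replicate 6 held 5 skeletal muscle markers at a sum of 762 CPM (a count scaled to the size of its library, with TMM factors over all libraries), against 0.420 to 2.19 CPM in the other livers. Nothing in the labels says that liver and kidney libraries of the same replicate number come from the same animal.

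The 84 members together held 1.30% to 1.91% of all counts in liver and 1.43% to 2.96% in kidney. In liver the mean was 1.49% ± 0.226 (SD, n = 6) with 7c and 1.43% ± 0.156 (SD, n = 4) with vehicle. In kidney it was 2.02% ± 0.510 (SD, n = 6) with 7c and 1.82% ± 0.675 (SD, n = 4) with vehicle, so the groups overlapped widely in both tissues. The wide spread in kidney came from a pair of libraries, 7c replicate 5 at 2.96% and vehicle replicate 2 at 2.83%, while the other 8 kidneys stayed at or below 2.14%. These kidneys were the highest pair for 73 of the 82 members tested there (89.0%). The same held for 272 of 562 other protein-coding genes with a transcript under 1000 bases (48.4%) and for 15.8% of all 17749 genes tested. The members stood 0.72 and 0.71 (median, log2) above the mean of the 10 kidneys in these libraries, and the other short genes 0.58 and 0.50 above it. In liver, 7c replicate 3 was highest for 65 of 81 members (80.2%), against 31.1% of the other short genes and 1658 of all 15012 genes. Most members of a tissue therefore moved up and down together from library to library, in step with other short transcripts. This was seen in 7c and vehicle mice alike. Of 78 members with over 100 counts on average in both tissues, 71 in kidney and 59 in liver correlated with the rest above 0.8. In liver Rpl26 and Rps2 did not move with the rest (r = -0.04 and 0.02). Mitochondrial transcripts were lowest of their group in the kidneys of 7c replicate 5 and vehicle replicate 2, at 3.98% and 6.73% of counts. The 4 kidney markers named above summed to 55581 CPM in the first and 48782 CPM in the second, against 26485 to 38587 CPM in the other 8 kidneys. Most of each sum was Kap, at 21323 to 48544 CPM in 7c kidneys and 18833 to 41697 CPM in vehicle kidneys. Umod, Slc34a1 and Slc12a1 reached at most 1940, 6197 and 662 CPM in any kidney, so the sums mainly describe 1 mRNA. Red cell markers summed to 1808 CPM and 1053 CPM there, against 374 to 1800 CPM in the other 7c kidneys and 246 to 495 CPM in the other vehicle kidneys. The part of transcript length, cell makeup or RNA quality in it was not tested.

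**Figure D1:**
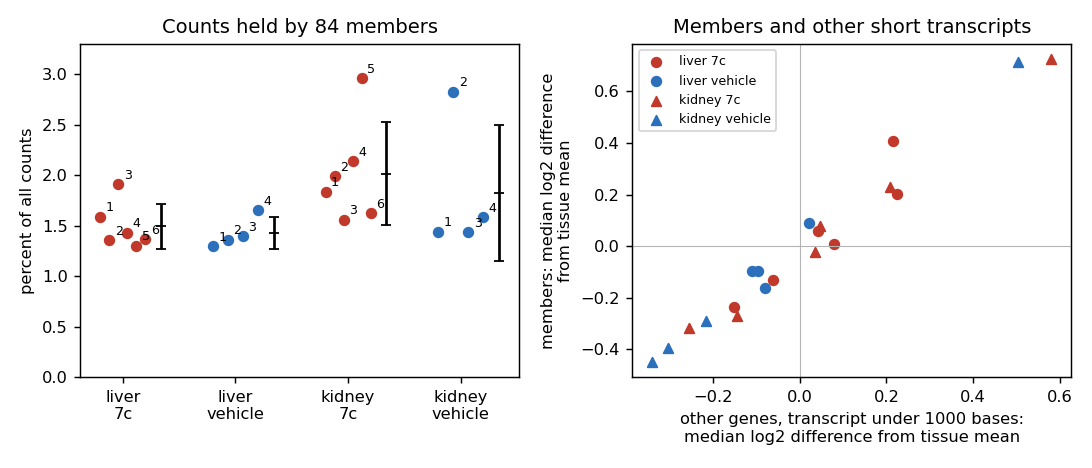
Left, percent of all counts held by the 84 members in each of the 20 libraries, numbered by replicate, with mean and SD as bars; 7c replicate 5 and vehicle replicate 2 stand apart among the kidneys at 2.96% and 2.83%. Right, median log2 difference from the mean of the 10 libraries of the tissue, for the members (vertical) against other protein-coding genes with transcripts under 1000 bases (horizontal), 1 point per library; the points of both tissues rise together.

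The first comparison asked whether 7c changed the level of these genes. In liver no member passed an adjusted p of 0.05 in edgeR's quasi-likelihood test (0 of 81, where 0.00666% of all 15012 genes tested did). An unadjusted p under 0.05 with a higher level under 7c was reached by 2 of 81 members, 2.47%, close to the 1.81% of all genes, namely Rpsa and Rpl29. DESeq2, limma-voom and the likelihood ratio test called 0 members too. The estimated log2 fold change was above 0 for 71 of 81 members, against 50.4% of all genes, and its median was 0.10 against 0.00 for all genes. The standard errors of the single members had a median of 0.14. With 1 replicate left out the count above 0 ran from 55, without 7c replicate 3, to 76, without vehicle replicate 4, and the median from 0.03 to 0.17 without the same replicates. The median was 0.07 without vehicle replicate 3 and 0.15 and 0.16 without 7c replicates 2 and 5. The share of all genes above 0 is not given with 1 replicate left out.

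In kidney the picture was alike. No member of 82 passed the threshold in edgeR's test, in DESeq2 or in limma-voom, where 0% of all 17749 genes did in edgeR's, and 1 member reached an unadjusted p under 0.05 with a higher level, or 1.22%, against 1.38% of all genes. Every 7c kidney lay above every vehicle kidney for 0 of 82 members, against 0.349% of all genes. The log2 fold change was above 0 for 72 of 82 members, against 49% of all genes, with a median of 0.10 against -0.01 for all genes and a median standard error of 0.27. That direction rested on few libraries: without 7c replicate 5 only 19 members were above 0 and the median was -0.06, and without vehicle replicate 3 the count was 35 and the median -0.02. Without vehicle replicates 1 and 4 the counts were 41 and 48. Without vehicle replicate 2 it was 81 with a median of 0.46, and with both high kidneys left out it was 80 with a median of 0.30. The share of all genes above 0 is not given for these refits. Most members move together, so the members in such a count are not independent. The treatment by tissue interaction was not called for any of 81 members, where 0.00706% of 14163 genes were, and the lowest unadjusted p was 0.236, that of Rps10.

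**Figure D2:**
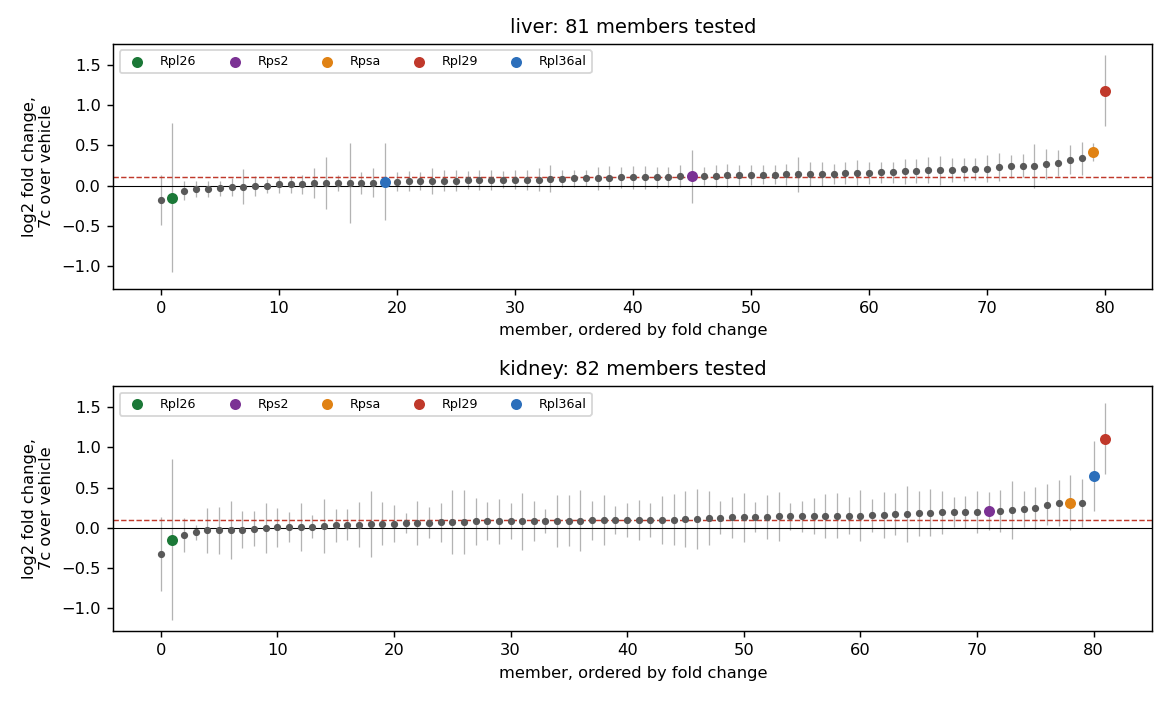
Log2 fold change of 7c over vehicle for each member tested, ordered by size, with its standard error, in liver (81 members) and kidney (82 members); the dashed line is the members' median, 0.10 in both tissues. Rpl29 stands at the upper end in both tissues, and Rpl26 has the widest error bar in each.

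Among members with known roles outside the ribosome, or in wide use as reference genes, 12 were followed, and of these only Rpsa, described below, had an unadjusted p under 0.11. Rps6, the small subunit protein phosphorylated by S6 kinase, had a log2 fold change of -0.02 (SE 0.11) in liver and 0.14 (SE 0.17) in kidney. Rpl5 and Rpl11, which bind Mdm2 when ribosome assembly fails, had -0.06 (SE 0.12) and 0.20 (SE 0.14) in liver. The acidic stalk proteins Rplp0, Rplp1 and Rplp2, which recruit elongation factors, had 0.03, 0.10 and 0.24 in liver with SE of 0.18, 0.14 and 0.14. Rps19, the gene most often mutated in Diamond-Blackfan anaemia, had 0.24 (SE 0.14) in liver. Rps27a, which is translated as a fusion with ubiquitin, had 0.12 (SE 0.14), and Rpl41, the shortest member with 75 coding bases, 0.19 (SE 0.15). Rplp0, though a common reference gene, spread from 308 to 1019 CPM across the 10 kidneys and from 250 to 484 CPM across the 10 livers. With the counts of the 3 pseudogenes that share its windows added, its range narrowed from 3.31-fold to 2.705-fold in kidney and from 1.94-fold to 1.38-fold in liver.

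Other genes of the pathway were examined as lists. No gene passed an adjusted p of 0.05 in either tissue among 14 translation factors whose mRNAs carry the same terminal motif, 27 genes of ribosome biogenesis, 16 upstream regulators such as Mtor, Larp1 and Myc, or the 4 ribosomal proteins named otherwise. The translation factors with that motif were above 0 for 4 of 14 in liver and 7 of 14 in kidney, with medians of -0.08 and 0.01. All 4 of the ribosomal proteins outside the rule were above 0 in both tissues, with medians of 0.19 and 0.23.

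Rpsa, the small subunit protein also known as the laminin receptor precursor, had the lowest p of all members in liver. Its level was 574, 510, 634, 551, 484 and 514 CPM in 7c replicates 1 to 6 and 343, 464, 357 and 436 CPM in vehicle replicates 1 to 4. Every 7c liver lay above every vehicle liver, which held for 1 of 81 members (0.373% of all genes). The log2 fold change was 0.42 (SE 0.11), with an unadjusted p of 0.00225 and an adjusted p of 1.00 in edgeR's quasi-likelihood test. In kidney the groups overlapped, with 377 to 899 CPM under 7c and 263 to 929 CPM under vehicle.

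The Rpsa counts were set beside those of its pseudogene Rpsa-ps10 (chr3:149778295-149779179, GRCm39, minus strand). The annotated pseudogene differs from the coding sequence of Rpsa (chr9:119956755-119962787) at 6 of 885 bases, and 75.7% of the 100-base windows of that coding sequence occur unchanged elsewhere in the genome. Shown are coding bases 190 to 230, counted from the A of the start codon, chosen since they hold 2 of the differences, in capitals: T210C and C219T, with the gene's base first.
Rpsa: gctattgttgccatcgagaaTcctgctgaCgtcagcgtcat
Rpsa-ps10: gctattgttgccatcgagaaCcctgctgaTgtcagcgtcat
Rpsa-ps10 held 80.9, 92.4 and 97.5 CPM in the livers of vehicle replicates 1, 3 and 4, and 6.05 to 9.19 CPM in the 7c livers and the liver of vehicle replicate 2. In kidney the same 3 replicates stood highest, at 71.6 to 83.4 CPM. The vehicle replicates with high pseudogene counts were thus the livers with the lowest Rpsa counts. When the counts of the 10 pseudogenes that share windows with Rpsa were added to its own, 7c livers ran from 492.7 to 646 CPM and vehicle livers from 427 to 540 CPM. The groups then overlapped, and the log2 fold change was 0.21 (SE 0.10, unadjusted p 0.0684, adjusted p 1.00, same test). Whether reads of the gene were counted on the pseudogene, or the reverse, was not tested. Over 22 settings the adjusted p of Rpsa in this test or another tool ran from 0.282 to 1.00.

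Rpl26, a large subunit protein that also binds the p53 mRNA, varied more between libraries than any other member with over 100 counts on average. In liver it was at 8.48, 8.89 and 7.63 CPM in 7c replicate 1, 7c replicate 6 and vehicle replicate 1. In the other 7 livers it lay between 112 and 290 CPM. The same 3 replicate numbers were the low ones in kidney, at 9.51, 8.38 and 10.04 CPM, while the other 7 kidneys lay between 90.6 and 426 CPM. The low libraries came from both treatment groups. The log2 fold change of 7c over vehicle was -0.15 in both tissues, with SE of 0.93 in liver and 0.99 in kidney, the widest of all members.

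Where counts of Rpl26 were low, they were high on the processed pseudogene Gm15772 (chr5:3286431-3286868, GRCm39, plus strand). It differs from the gene (chr11:68792344-68797822, plus strand) at 2 of 435 coding bases, C177T and T288C, counted from the A of the start codon with the gene's base first. These differences are shown with 20 bases on each side, since they are the only bases at which the coding parts differ in the reference genome. The pseudogene stretches are chr5:3286587-3286627 and chr5:3286698-3286738.
Rpl26, coding bases 157 to 197: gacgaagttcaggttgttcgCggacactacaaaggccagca
Gm15772, the same stretch: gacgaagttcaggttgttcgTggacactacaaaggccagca
Rpl26, coding bases 268 to 308: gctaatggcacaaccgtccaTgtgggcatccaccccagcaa
Gm15772, the same stretch: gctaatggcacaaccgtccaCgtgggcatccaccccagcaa
Gm15772 held 134, 126 and 129 CPM in the livers of 7c replicate 1, 7c replicate 6 and vehicle replicate 1, the replicates in which Rpl26 was low. It held 61.6 and 49.4 CPM in the livers of 7c replicate 4 and vehicle replicate 3, in which Rpl26 was at 126 and 112 CPM, the lowest of the remaining 7. In the other 5 livers, where Rpl26 reached 210 to 290 CPM, the pseudogene stayed between 2.43 and 5.90 CPM. In kidney the same 3 levels were found in the same replicate numbers, at 98.6 to 121 CPM, at 48.5 and 75.1 CPM, and at 3.42 to 10.7 CPM. Since the replicates fall into separate groups by this gene, no correlation between the tissues is given for it. Adding the counts of the 4 pseudogenes that share its windows brought the 38.0-fold range of Rpl26 across livers down to 2.14-fold, and the 50.9-fold range across kidneys to 4.00-fold. The 3 low replicates remained the lowest of the 10 in each tissue after the addition, at 137 to 145 CPM in liver and 111 to 134 CPM in kidney.

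Rpl29, a large subunit protein, had the largest fold change under 7c in both tissues and was the second most variable among the members with over 100 counts on average. In liver, 7c replicates 2, 3 and 4 had 112, 138 and 137 CPM. The other 3 7c livers had 33.8, 30.3 and 36.1 CPM, within the 31.9 to 38.8 CPM of the 4 vehicle livers or just below them. Only part of the 7c group was therefore high. In kidney the same replicate numbers were again the highest 3, at 152, 104 and 187 CPM, and 7c replicate 5 and vehicle replicate 2, the kidneys with most ribosomal protein counts, followed at 86.4 and 81.1 CPM. The remaining 5 kidneys lay between 31.3 and 42.0 CPM. In edgeR's quasi-likelihood test the log2 fold change was 1.18 (SE 0.44, unadjusted p 0.0187) in liver and 1.11 (SE 0.44, unadjusted p 0.0273) in kidney, with adjusted p of 1.00 and 0.997. The 24 pseudogenes that share its windows summed to 8.28, 9.33 and 9.96 CPM in the livers of 7c replicates 2, 3 and 4, the lowest of the 10 livers, and to 10.07 to 15.1 CPM in the others. Their sums were far smaller than the differences of the gene, and with them added the range across livers was 3.37-fold against 4.55-fold without. The most abundant of them, Gm13841 (chr5:115939736-115940218, minus strand), differs from the coding sequence at 3 of 480 bases, the first of them C72A.

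**Figure D3:**
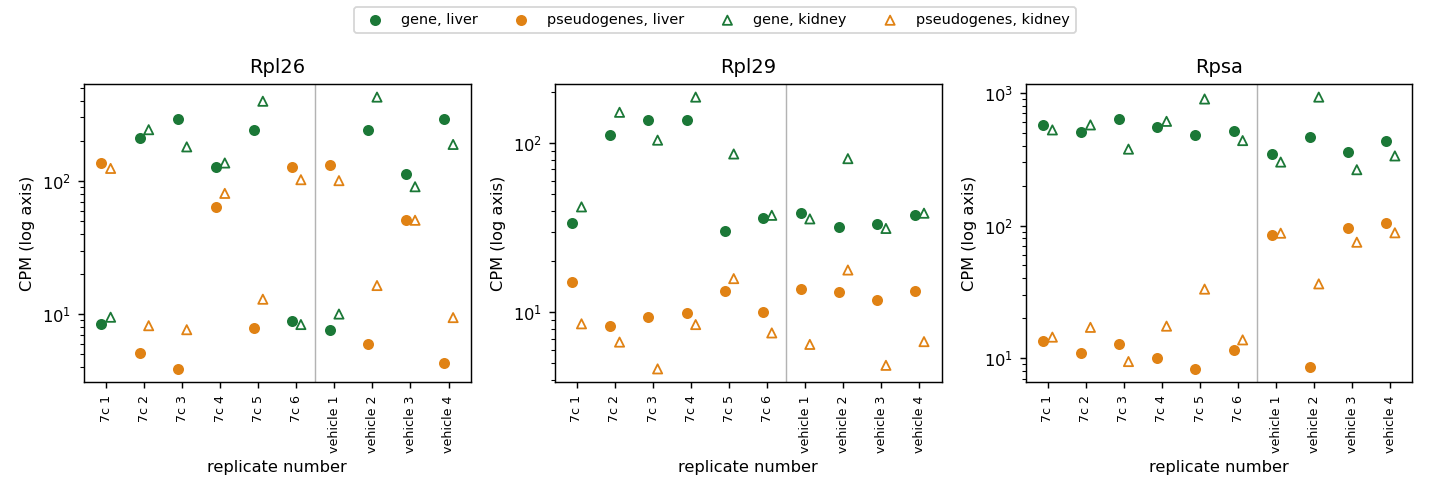
CPM (log axis) of Rpl26, Rpl29 and Rpsa (green) and of the summed pseudogenes that share their 100-base windows (orange), by replicate, in liver (filled circles) and kidney (open triangles); a line parts 7c from vehicle replicates. For Rpl26 the pseudogenes are high in 7c replicates 1 and 6 and vehicle replicate 1, where the gene is near 10 CPM.

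Rps2, which sits at the mRNA entry of the small subunit, was the third most variable in liver among the members with over 100 counts on average, from 245 CPM in vehicle replicate 2 and 289 CPM in 7c replicate 4 to 908 CPM in vehicle replicate 3 and 912 CPM in 7c replicate 2. Its pseudogene Rps2-ps10 ran the other way, with 299 and 342 CPM in the livers where the gene was lowest and 2.00 and 3.96 CPM in those where it was highest. Gene and 36 pseudogenes together ranged 1.82-fold across livers, against 3.73-fold for the gene alone. In kidney the third most variable of these was Rps15, at 593 and 553 CPM in vehicle replicate 2 and 7c replicate 5 and 159 to 323 CPM in the other 8. Leaving aside Rpl26 and Rpl29, whose libraries fall into separate groups, the member whose deviations in log2 CPM from the group means were most alike between liver and kidney libraries of the same number was Rplp0 (Pearson's r = 0.65, Spearman's rho = 0.73, n = 10, r = 0.53 without the 2 farthest livers). It was chosen as the highest of the other members with over 100 counts in both tissues, so this is a description and no p is given. The median r over the 78 such members was -0.30, and 8 were above 0.

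How far a member shares sequence with the rest of the genome varied over the whole scale. Every 100-base window of the coding sequence occurred unchanged elsewhere for 25 members, and none did for 8, among them Rpl22 and the paralogs Rps27l, Rpl3l, Rpl10l and Rpl39l. The members with all windows elsewhere ranged from 0.576 to 598 CPM in liver with a median of 201 CPM, the 8 with no window elsewhere from 0 to 419 CPM with a median of 157 CPM, and the 50 with some windows elsewhere from 1.48 to 700.4 CPM with a median of 215 CPM. How the counting treated reads with several positions is not given in the sources used here. Whether reads were exchanged between any member and its pseudogenes was not tested.

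The levels of the members spanned a wide scale, and per kilobase of annotated exons the highest were Rplp1, at 637 CPM per kb in liver and 512 CPM per kb in kidney, followed in liver by Rps2 (330 CPM per kb) and Rpl10 (276 CPM per kb) and in kidney by Rpl41 (263 CPM per kb) and Rpl8 (258 CPM per kb). The median of the members tested was 64.8 CPM per kb in liver and 51.2 CPM per kb in kidney. The order depends on the length used: with 1 transcript per gene, Rpl10 led in liver at 691 CPM per kb and Rpl41 in kidney at 631 CPM per kb. Among the members that passed the filter, the lowest were Rpl24 (0.489 CPM per kb) and Rpl36al (0.493 CPM per kb) in liver. In kidney they were Rpl36al (0.154 CPM per kb) and Rps10 (0.728 CPM per kb). On average Rpl24 had 0.576 CPM in liver and Rpl36al 0.462 CPM in kidney, Rps10 had 2.27 and 2.32 CPM in liver and kidney, and Rpl13a, another common reference gene, 9.05 and 9.38 CPM.

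What these 4 members, Rpl24, Rpl36al, Rps10 and Rpl13a, have in common is their place in the annotation. In GENCODE vM39 between 83.4% and 97.5% of their coding bases lie inside exons of a second gene on the same strand: Gm28037 over Rpl24 (chr16:55786638-55791798), Gm49804 over Rps10 (chr17:27849390-27855643), Gm49383 over Rpl36al (chr12:69228230-69231234) and Gm45713 over Rpl13a (chr7:44774982-44778263). The only other member with any such overlap was Rpl19, at 13.6%. Each of the genes over the 4 had 0 counts in all 20 libraries. The other 77 members tested in liver ranged from 12.8 to 700 CPM, so their levels did not overlap with those of the 4, at 0.576 to 9.05 CPM. The same members divided alike in kidney, except that Rps4l, at 6.74 CPM, fell below Rpl13a. Rpl3l, tested in kidney alone and without such overlap, was also below Rpl13a there, at 1.02 to 2.76 CPM. Whether the mRNAs of the 4 are scarce was not tested.

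**Figure D4:**
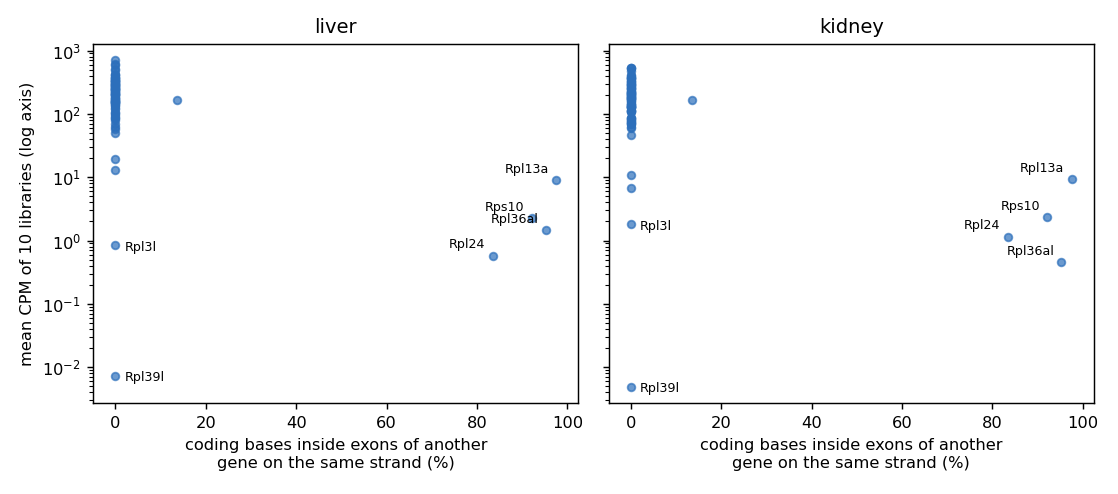
Mean CPM of each member over the 10 libraries of a tissue (log axis) against the percent of its coding bases that lie in exons of another gene on the same strand. Rpl24, Rps10, Rpl36al and Rpl13a stand apart at over 80% overlap and under 10 CPM; Rpl3l and the nearly undetected Rpl39l are low with no overlap, and Rpl10l, at 0, is not drawn.

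The next comparison set liver against kidney in vehicle mice, by a contrast in 1 fit of all 20 libraries. With TMM scaling, 17 of 82 members were higher in liver at an adjusted p under 0.05 (20.7%, against 26.8% of all 18598 genes) and 3 were higher in kidney (3.66%, against 31%). The median log2 difference of the members was 0.25 and that of all genes -0.11. The split depended on how libraries were scaled to each other: with RLE size factors 13 and 3 members were called, beside 4613 and 6138 of all 18598 genes. With the total count alone 2 were higher in liver and 25 in kidney, beside 2698 and 9442 of all genes, with medians of -0.34 for the members and -0.71 for all genes. The distance between both medians stayed between 0.36 and 0.38 under the 3 scalings. In 7c mice, which are other animals, 27 members were higher in liver (32.9%, against 30.5% of all genes) and 0 in kidney (33.4%). Counts of calls also moved when the liver and kidney of 1 replicate number were left out, from 17 to 47 members higher in liver without vehicle replicate 2, and to 9, 10 and 8 without vehicle replicates 1, 3 and 4. In 7c mice the 27 became 17 and 16 without 7c replicates 1 and 3. Without the kidneys of 7c replicate 5 and vehicle replicate 2, 55 members were higher in liver and 0 in kidney. The calls over all genes are not given for these refits, so these counts are not read as particular to the members.

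Under all 3 scalings, 2 members were higher in liver in vehicle mice, Rps27l and Rpl36al, and 3 were higher in kidney, Rpl24, Rpl38 and Rpl3l. Of these, Rpl3l had passed the count filter through kidney alone, so its call is no support for a difference. In 7c mice Rps27l alone was called in the same direction under all 3, while Rpl15 and Rpl4 were called in both directions depending on the scaling. Besides Rps27l and Rpl36al, the largest rises in liver under TMM among the members called were those of Rpl35a (0.96, SE 0.30), Rps18 (0.89, SE 0.20) and Rpl22l1 (0.76, SE 0.22), each called with TMM and not with the total count alone. Rps6 (0.67, SE 0.17) and Rpl23a (0.52, SE 0.21) were also among the 17, and fell to 0.084 and -0.060 with the total count alone, where neither was called.

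Rps27l, the paralog of Rps27 and a known p53 target, showed the clearest tissue difference. Its level was 199, 188, 194 and 205 CPM in the vehicle livers and 75.4, 103, 83.4 and 72.0 CPM in the vehicle kidneys. The groups did not overlap, and the log2 difference was 1.23 (SE 0.16, adjusted p 7.83e-07 in edgeR's quasi-likelihood test). No single setting ended this call. In 7c mice livers had 161 to 276 CPM and kidneys 74.0 to 117 CPM, with a log2 difference of 1.30 (SE 0.13, adjusted p 1.22e-08 in the same test). Over all settings tried the difference stayed between 0.64 and 1.38 in vehicle mice and between 0.64 and 1.42 in 7c mice.

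Where counts lie well above the pseudocount of 0.5, a ratio of paralog to parent within a library does not depend on the scaling. Rps27l and Rps27 exchanged places between the tissues. Rps27l held 57.5% to 66.1% of the counts of the pair in the 10 livers and 31.3% to 48.9% in the 10 kidneys. Every liver was above every kidney. The log2 ratio of Rps27l to Rps27 was 0.59 ± 0.252 (SD, n = 4) in vehicle livers and -0.54 ± 0.445 (SD, n = 4) in vehicle kidneys, a difference of 1.13 (two-sided exact permutation test, p = 0.0286, the smallest the 70 splits allow). Within tissues the ratio did not differ beyond its spread between 7c and vehicle, with differences of -0.01 in liver (exact permutation p = 0.96) and 0.06 in kidney (exact permutation p = 0.82). None of the 153 coding windows of 100 bases of Rps27l occurs elsewhere in the genome, while all 153 of Rps27 do, and 48.3% of the 50-base windows of Rps27l do. In all 24 ratio tests were made, 8 pairs in 3 comparisons, and the p-values are not adjusted. The tests of Rpl10l and Rpl39l, at 0 counts in all or nearly all libraries, follow the pseudocount and the counts of the parent. The only other p under 0.05 was that of Rpl3l to Rpl3 between the vehicle tissues. With 3 libraries against 3 the exact permutation test cannot go below 0.1.

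**Figure D5:**
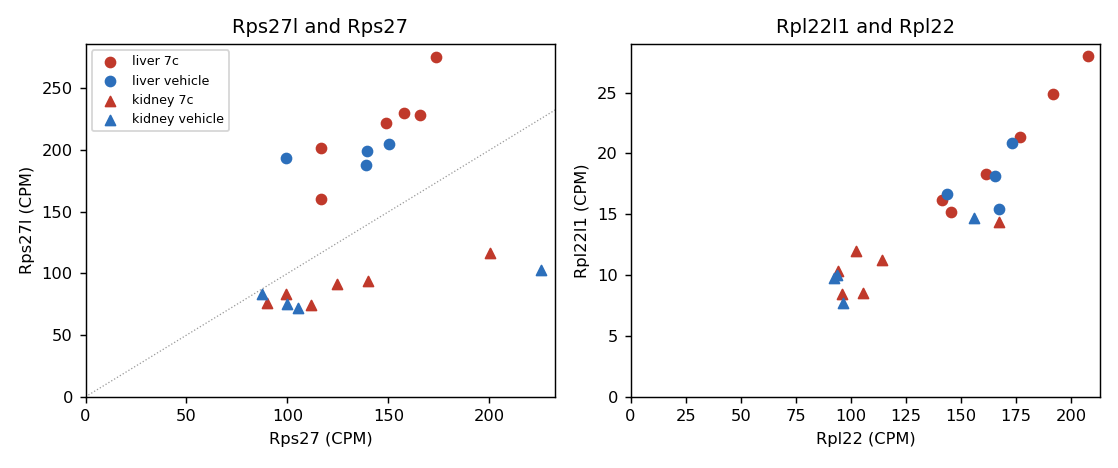
CPM of the paralogs Rps27l and Rpl22l1 (vertical) against their parents Rps27 and Rpl22 (horizontal) in the 20 libraries, by tissue and treatment; the dotted line in the left plot marks equal levels. All 10 livers lie above the line for Rps27l and all 10 kidneys below it, and Rpl22l1 stays under 30 CPM throughout.

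The other paralogs formed smaller shares of their pairs. Rpl7l1, whose product acts in ribosome assembly, held 15.4% to 20.4% of the counts of Rpl7l1 and Rpl7 in liver and 11.2% to 16.7% in kidney, and Rpl22l1 held 8.47% to 11.9% of its pair in liver and 7.39% to 10.5% in kidney. Their log2 ratios differed between vehicle livers and kidneys by 0.24 (exact permutation p = 0.17) and 0.19 (exact permutation p = 0.20), within the spread of the libraries. Both genes were higher in liver under TMM, with log2 differences of 0.53 (SE 0.10) for Rpl7l1 and 0.76 (SE 0.22) for Rpl22l1, while Rpl22, the parent of Rpl22l1, also stood at 0.57 (SE 0.19). The direction turned to -0.07 for Rpl7l1 and -0.02 for Rpl22 with the total count alone. Rps4l held 2.17% to 6.34% of its pair with the X-linked Rps4x in liver and 1.33% to 2.94% in kidney (difference of the log2 ratios in vehicle mice 0.61, exact permutation p = 0.26). Rpl36al held 0.643% to 2.36% of its pair with Rpl36a in liver and 0.287% to 1.65% in kidney, on counts of 7 to 66. It is among the members with the annotation overlap described above, whose effect on its counts was not tested.

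The tissue-restricted paralogs were near the floor. Rpl10l, known from the testis, had 0 counts in all 20 libraries. Rpl39l, likewise known from male germ cells, had counts in 1 liver (2 counts) and 1 kidney (4 counts). Rpl3l, the striated muscle paralog of Rpl3, had 0 to 11 counts in 9 livers and 152 counts in the liver of 7c replicate 6, the library with skeletal muscle transcripts. In kidney it had 48 to 172 counts in every library, at 1.02 to 2.76 CPM, beside skeletal muscle markers that summed to 0.934 to 3.55 CPM. In vehicle mice every kidney, from 1.02 CPM up, lay above every liver, at 0.379 CPM at most. Rpl3l had failed the count filter in liver and entered this comparison through its kidney counts alone, so no weight is placed on its call. The log2 difference of liver over kidney was -3.07 (SE 1.27, adjusted p 0.0444, edgeR's quasi-likelihood test). It stayed between -3.72 and -2.42 with 1 replicate left out, while the call was lost without any one of the 4 vehicle replicates or without 7c replicate 1. In 7c mice it was not called. Between 7c and vehicle kidneys it had a log2 fold change of 0.00 (SE 0.31).

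The members higher in kidney rested on thin support. Rpl24 was at 0.520, 0.891, 0.913 and 2.89 CPM in vehicle kidneys and 0.326 to 0.924 CPM in vehicle livers, and Rpl38 at 46.1, 48.3, 59.9 and 131 CPM in kidneys and 30.5 to 52.3 CPM in livers, so that both overlapped between the tissues. For each of them the highest value was that of vehicle replicate 2. Without that replicate the log2 differences moved from -1.21 (SE 0.52) to -0.38 for Rpl24 and from -0.70 (SE 0.29) to -0.23 for Rpl38, and neither was called.

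The genes around the ribosome differed between the tissues in both directions. Of the 14 translation factors with the terminal motif 8 were higher in liver and 1 in kidney in vehicle mice, of the 27 biogenesis genes 10 and 3, and of the 16 regulators 5 and 3, where 26.8% of all genes were higher in liver and 31% in kidney. Among the regulators, Eif4ebp1, a repressor of cap-dependent initiation released by mTOR, was higher in liver (log2 difference 2.42, SE 0.24), and Mtor itself (-1.62, SE 0.17) and Maf1 (-1.48, SE 0.15), a repressor of RNA polymerase III, were higher in kidney. Of the biogenesis genes Nmd3, the export adaptor of the large subunit, was higher in liver (1.17, SE 0.14).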

How the data were processed

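Libraries of polyadenylated RNA from 10 livers and 10 kidneys were used. The submitters' processing notes name STAR 2.7.11b, featureCounts 2.0.6 and the genome build GRCm39. The values the authors deposited are raw counts per gene, whole numbers without normalization, with library totals from 27855849 to 64872451. The annotation release, the strand setting and the handling of reads with several positions are not given in the sources used here. Gene symbols and positions came from GENCODE vM39, which matched 56310 of 57010 genes. No 2 libraries were identical in 190 pairs compared.

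Genes that reached 10 counts in 50% or more of a tissue's libraries were tested with edgeR 4.0.16 (R 4.3.3, TMM, quasi-likelihood F-test with package defaults, Benjamini-Hochberg over all genes tested, threshold 0.05), with treatment as the only term. Tissue and interaction contrasts came from 1 fit of 4 groups. Tissue contrasts took genes that passed the filter in at least 1 tissue, and the interaction those that passed in both. The SE of a log2 fold change was its absolute value over the square root of the F statistic, not a separate estimate. Printed CPM were scaled by TMM over all 20 libraries. Paralog ratios used a pseudocount of 0.5 and two-sided exact permutation tests. All p-values measure the spread between these samples only. Windows of 100 coding bases were searched on both strands of GRCm39. The scripts were tested on simulated data.

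The members and lists were chosen with earlier results of these data known. Named were all paralogs and their parents, 12 members with known extra roles or use as reference genes, the members of largest change or lowest p in each comparison, the highest and lowest levels per kb, the most variable members, those most alike between tissues, and every member that failed the filter. Rps2-ps10, Gm15772 and other pseudogenes and the genes overlapping Rpl24, Rps10, Rpl36al and Rpl13a were named after their values were seen. Alternatives were RLE size factors, the total count alone, DESeq2 1.42.0, limma-voom (limma 3.58.1), the likelihood ratio test, edgeR's other quasi-likelihood method, no filter, filterByExpr, a replicate block, 1 surrogate variable (sva 3.50.0), both tissues in 1 fit, and leaving out each replicate. Some named results are not reported here.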

Additional observations from a re-analysis of the deposited data

Results flagged for a closer look

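Of 144 groups of 4 or 6 libraries examined, for the members named by rule and for the share of all counts, 29 (20.1%) held a single library far from the rest by Dixon's criterion, which chance alone meets in about 1 group in 20. The groups are not independent, since the members move together.

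Among the vehicle kidneys replicate 2 stood apart in the share of counts, at 2.83%. It was also the high value in CPM for Rpl10 (764), Rpl11 (354), Rpl22 (156), Rpl23a (73.8), Rpl24 (2.89), Rpl29 (81.1), Rpl36a (117), Rpl38 (131), Rpl39 (97.2) and Rpl41 (592). The same library was the high one for Rpl5 (399), Rpl7 (491), Rplp0 (988), Rplp1 (558), Rps14 (270.1), Rps19 (319), Rps27 (226), Rps27a (205), Rps4x (439) and Rpsa (929), again in CPM.

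Among the 7c kidneys replicate 5 stood apart for Rpl22 (167 CPM), Rpl24 (1.93 CPM), Rpl36a (110.4 CPM), Rpl5 (494 CPM) and Rps14 (368.5 CPM). Among the 7c livers replicate 3 did for Rpl35a (277.5 CPM) and Rps18 (325 CPM), and replicate 6, the liver with skeletal muscle transcripts, for Rpl3l (6.89 CPM).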

How the results depend on the processing

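No alternative called any member between 7c and vehicle in either tissue or in the interaction. With the total count alone, members higher in liver numbered 2 and higher in kidney 25 in vehicle mice (median -0.34), and 1 and 43 in 7c mice (median -0.39). Single members then turned, in vehicle mice Rpl7a (-0.15), Rpl34 (-0.0072), Rpl22 (-0.018), Rpl15 (-0.13), Rpl23 (-0.12), Rpl27 (-0.00081), Rpl23a (-0.060), Rps7 (-0.015) and Rpl7l1 (-0.068), and in 7c mice Rpl15 (-0.22) and Rpl4 (-0.27). Limma-voom gave 28 members higher in liver and 1 in kidney in vehicle mice and 1 higher in kidney in 7c mice, where DESeq2 gave 2. Leaving out the 7c replicate 5 and vehicle replicate 2 kidneys, a choice made after seeing the data, gave 55 and 0 in vehicle mice. Calls over all genes are not given for limma-voom, DESeq2 or this choice. Without the 50 highest genes the members held 2.24% (liver 7c), 2.11% (liver vehicle), 2.71% (kidney 7c) and 2.49% (kidney vehicle) of counts. The causes were not tested.

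With 1 replicate left out, the median log2 fold change of 7c in liver ran from 0.03 to 0.17, with 55 to 76 members above 0, and that in kidney from -0.055 to 0.46, with 19 to 81 members above 0. In vehicle mice 8 to 47 members were higher in liver and 0 to 3 in kidney, and in 7c mice 16 to 39 and 0 to 1. Calls and shares over all genes are not given for these refits. Paralog ratios past 0.05 numbered 0 to 2 for 7c in kidney, 1 of the 2 being that of Rpl10l, which has no counts, and 0 between tissues, where 3 libraries against 3 cannot go below p = 0.1 in the exact permutation test. The labels do not say what a shared replicate number stands for, and only 7 of 10 correlations between same-numbered liver and kidney libraries exceeded 0.1 (0.0130 to 0.259 over 14163 genes), so the numbers were not taken to pair the samples. As a hint from the data that they may, 8 of 10 livers correlated best with their own number, and Rpl26, Gm15772 and Rpsa-ps10 were high or low in the same numbers in both tissues. With a replicate block, 1 member in place of 3 was higher in kidney in vehicle mice and 1 in place of 0 in 7c mice.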
